A study of Mus musculus with 24 samples.

Results

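The genes described here were 10 genes of prostaglandin and leukotriene synthesis, taken by name from the 43430 gene IDs of a table of RNA-seq counts. They were Pla2g4a, which frees the substrate, the prostanoid genes Ptgs1, Ptgs2, Ptges, Hpgds and Tbxas1, and the leukotriene genes Alox5, Alox5ap, Lta4h and Ltc4s. The table covered 24 libraries of alveolar macrophages sorted from C57BL/6J mice, in 6 groups of 4. Young mice were 8 to 12 weeks old and old mice more than 18 months. Siglec F-high cells came from naive young mice, naive old mice, and young and old mice 28 days after asbestos. Siglec F-low cells came only from asbestos-exposed mice, young and old. The sample labels gave neither the number of animals behind a library nor the kind of asbestos, and the untreated state of the control mice was given only as naive. Because the labels did not say that libraries of a group came from separate animals, p-values measure the spread between these libraries, which may be technical in part.

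Prostaglandins and leukotrienes are lipid mediators made from arachidonic acid. Cytosolic phospholipase A2 (Pla2g4a) releases the acid from membranes, the cyclooxygenases (Ptgs1 and Ptgs2) turn it into prostaglandin H, and terminal synthases turn that into prostaglandin E (Ptges), prostaglandin D (Hpgds) or thromboxane A (Tbxas1). In the other branch 5-lipoxygenase (Alox5), helped by its activating protein (Alox5ap), makes leukotriene A, which is hydrolysed to leukotriene B by Lta4h or joined to glutathione by Ltc4s to give leukotriene C. Resident alveolar macrophages are known as a source of leukotrienes, thromboxane and prostaglandins in the lung.

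All 10 genes were found in the table and all passed the filter on low counts. On GRCm38 (GENCODE M21, the mm10 build named in the submitters' processing notes) they are protein-coding genes at these places. Pla2g4a (ENSMUSG00000056220) is on chromosome 1 from 149829618 to 149961290 on the minus strand. Ptgs2 (ENSMUSG00000032487) starts 138740 bases beyond it, at 150100031 to 150108227 on the plus strand of the same chromosome. Ptgs1 (ENSMUSG00000047250) is on chromosome 2 at 36230426 to 36252272, plus strand, and Ptges (ENSMUSG00000050737) at 30889471 to 30929863, minus strand. On chromosome 6 are Hpgds (ENSMUSG00000029919, 65117293 to 65144908, minus strand), Tbxas1 (ENSMUSG00000029925, 38875404 to 39084585, plus strand) and Alox5 (ENSMUSG00000025701, 116410077 to 116461178, minus strand). Alox5ap (ENSMUSG00000060063) is on chromosome 5 at 149264767 to 149288153, plus strand. Lta4h (ENSMUSG00000015889) is on chromosome 10 at 93453411 to 93484875, plus strand. Ltc4s (ENSMUSG00000020377) is on chromosome 11 at 50236461 to 50238616, minus strand, and shares 268 exonic bases with the antisense gene Gm26542. Opposite-strand genes without counts of their own here share exonic bases with Ptgs1 (Gm43621, 148 bases), Tbxas1 (Gm42962, 144) and Alox5ap (Gm19719, 189).

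The starts of 4 genes are shown because their counts differed between the sorts or because they are the alternatives at the cyclooxygenase step. Each window runs from 250 bases before to 50 bases after a transcription start given by RefSeq (GRCm38.p6), printed 5′ to 3′ on the strand of the gene, with matches to searched motifs in capitals. The motifs were TATAAA for the TATA box, CCAAT for the box of that name, GGGCGG for the GC box, TGACGT for the core of the cAMP response element, TGANTCA for AP-1 and GAGGAAGT for a site bound by PU.1, an Ets factor of myeloid cells. Both strands were searched, and the matches in these 4 windows do not overlap.
Ptgs1, chr2:36230176-36230475, plus strand: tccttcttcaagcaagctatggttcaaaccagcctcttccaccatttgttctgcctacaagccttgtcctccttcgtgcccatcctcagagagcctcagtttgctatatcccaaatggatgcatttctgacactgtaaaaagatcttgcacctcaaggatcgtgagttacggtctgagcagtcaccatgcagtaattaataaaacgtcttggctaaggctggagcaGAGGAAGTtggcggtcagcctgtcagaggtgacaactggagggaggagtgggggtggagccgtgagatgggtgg
Hpgds, chr6:65144681-65144980, minus strand: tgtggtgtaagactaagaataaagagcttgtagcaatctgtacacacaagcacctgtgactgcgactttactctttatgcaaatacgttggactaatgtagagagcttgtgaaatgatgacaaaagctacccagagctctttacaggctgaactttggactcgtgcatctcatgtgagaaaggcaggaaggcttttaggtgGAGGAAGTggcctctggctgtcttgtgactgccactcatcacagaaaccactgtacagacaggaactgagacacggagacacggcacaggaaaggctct
Ptgs2, chr1:150099781-150100080, plus strand: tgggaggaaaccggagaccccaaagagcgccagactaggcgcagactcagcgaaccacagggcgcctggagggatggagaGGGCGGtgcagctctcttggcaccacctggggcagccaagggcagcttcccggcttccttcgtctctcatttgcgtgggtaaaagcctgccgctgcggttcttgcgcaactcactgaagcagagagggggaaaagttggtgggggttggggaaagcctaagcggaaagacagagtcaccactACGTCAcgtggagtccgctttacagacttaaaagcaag
Alox5, chr6:116461129-116461428, minus strand: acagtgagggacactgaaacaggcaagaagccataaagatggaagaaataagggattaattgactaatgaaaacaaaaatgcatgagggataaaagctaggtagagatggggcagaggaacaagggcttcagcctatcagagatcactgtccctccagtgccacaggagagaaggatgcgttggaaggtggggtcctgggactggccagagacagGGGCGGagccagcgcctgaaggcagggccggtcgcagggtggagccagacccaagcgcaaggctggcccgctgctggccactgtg
The Ptgs1 window held GAGGAAGT 24 to 17 bases before the start, and the Hpgds window 49 to 42 bases before it. These were 2 of the 9 genes with a window, and the same letters were in 3.20% of all 32851 windows. GENCODE begins Hpgds further upstream, at 65144908, so the Hpgds match lies before the RefSeq start but inside the gene as GENCODE gives it. The Ptgs2 window held the GC box, found in 35.7% of all windows, 170 to 165 bases before the start. It also held the reverse complement of TGACGT 12 to 17 bases after the start, a motif found on either strand in 7.51% of windows. The Alox5 window held a GC box 35 to 30 bases before the start. These are matches of letters, and no binding was measured.

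Total counts ran from 13423080 to 18124526 in 22 libraries, at a median of 16238528. These detected 17069 to 18820 genes, and rRNA-related genes took 0.237 to 0.585% of their counts. Replicate 3 of the young asbestos Siglec F-high group stood apart, with 11889517 counts and only 12528 genes, and so did replicate 3 of the old asbestos Siglec F-high group, with 3894699 counts, 51.4% of them on rRNA-related genes. Differences of the 10 genes are therefore given from all 24 libraries and from the other 22, a choice made after the data were seen. Levels are CPM (counts scaled to a common total) with library sizes adjusted by the TMM method of edgeR, as mean ± SD of 4 libraries, and differences are log2 fold changes ± standard error (SE) from the edgeR quasi-likelihood fit. A gene was called at a Benjamini-Hochberg adjusted p under 0.05 over all 13467 genes tested (13629 with 22 libraries). The sort was visible in its own gene: Siglecf, which encodes Siglec F, was lower in Siglec F-low than in Siglec F-high cells after asbestos, by -0.67 ± 0.14 in young (edgeR adjusted p = 0.00443) and by -1.35 ± 0.14 in old mice (3.84e-06), and by -0.79 (1.77e-05) and -1.43 (3.99e-09) with 22 libraries. All 10 alveolar macrophage markers had counts in every library, with Chil3 at 10570.5 CPM or more.

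Ptgs1 changed most among the 10 genes. It was 5.14-fold higher after asbestos in young and 3.90-fold higher in old Siglec F-high cells, and a further 2.87-fold (young) and 3.06-fold (old) higher in Siglec F-low cells. Thromboxane synthase (Tbxas1) was higher in old mice, by 1.34-fold in both the naive and the asbestos-exposed Siglec F-high cells. The call in naive cells was kept in only 6 of 24 fits that left out 1 library. Ptges was 2.68-fold higher in old than in young Siglec F-high cells after asbestos. Hpgds was 2.03-fold higher in young mice after asbestos, and 1.73-fold higher once the 2 libraries that stood apart were left out. That call with all libraries was kept in 17 of 24 fits that left out 1 library. Alox5 was lower in Siglec F-low cells once the 2 libraries that stood apart were left out. For Pla2g4a, Ptgs2, Lta4h and Ltc4s neither the 24-library nor the 22-library edgeR fit made a call in any of the 7 comparisons.

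**Figure D1:**
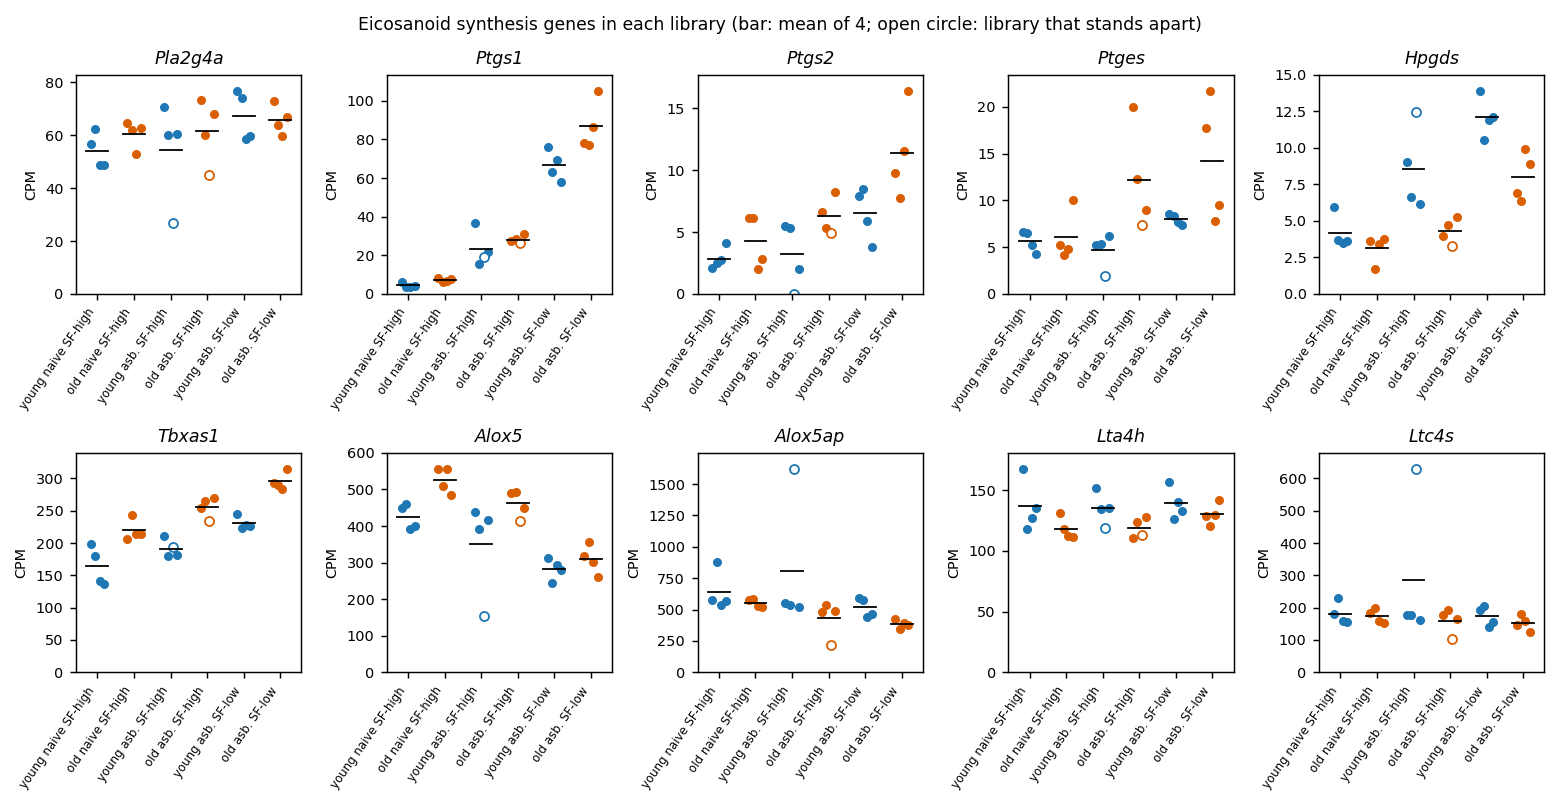
Level of each of the 10 genes in every library, as CPM on a linear axis from 0, in panels by gene and with young groups in blue and old groups in orange; bars are the means of 4 libraries and open circles the 2 libraries that stood apart. Ptgs1 climbs from 3.69 to 8.51 CPM in naive libraries to 58.1 to 105 CPM in Siglec F-low libraries, and the open circle of young asbestos Siglec F-high cells lies far from its group for Alox5, Alox5ap and Ltc4s.

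Cytosolic phospholipase A2, encoded by Pla2g4a, was measured at 48.6 to 62.4 CPM in young naive and 53.0 to 64.5 CPM in old naive libraries. After asbestos the Siglec F-low libraries held 58.4 to 76.7 CPM in young and 59.6 to 72.7 CPM in old mice. The Siglec F-high libraries held 60.0 to 70.6 CPM in young and 60.2 to 73.2 CPM in old mice, apart from 26.9 and 44.9 CPM in the libraries that stood apart. All groups thus overlapped. The log2 differences over the 7 comparisons were -0.03 to 0.30 with an SE of 0.20 (smallest edgeR adjusted p = 0.402), and -0.03 to 0.23 with SE of 0.10 to 0.12 with 22 libraries (0.258).

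At the cyclooxygenase step, Ptgs1 encodes the form known as constitutive in many tissues. Young naive libraries held 6.38, 3.82, 3.69 and 4.12 CPM of Ptgs1 (4.50 ± 1.27). Old naive libraries held 8.51, 6.01, 6.52 and 7.99 CPM (7.26 ± 1.19). The naive groups overlapped only through young replicate 1. After asbestos the young Siglec F-high libraries held 36.5, 15.5, 18.95 and 21.8 CPM (23.2 ± 9.25), and the old ones 27.2, 28.2, 26.1 and 30.9 CPM (28.1 ± 2.06). Without replicate 3, the means of 3 libraries were 24.6 ± 10.8 and 28.8 ± 1.93 CPM. Every asbestos library lay above every naive library. Young Siglec F-low libraries held 76.2, 63.0, 69.3 and 58.1 CPM (66.6 ± 7.85) and old ones 78.0, 77.2, 86.6 and 105 CPM (86.8 ± 12.99), all above every Siglec F-high library. In bulk libraries such as these, fewer cells of a type and less RNA per cell cannot be told apart.

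The response of Ptgs1 to asbestos was 2.36 ± 0.22 in young Siglec F-high cells (edgeR adjusted p = 1.9e-06) and 1.96 ± 0.22 in old ones (2.18e-05). With 22 libraries the values were 2.44 ± 0.22 (4.9e-07) and 1.99 ± 0.22 (5.12e-06). By its p, Ptgs1 ranked 3 among all genes tested in young and 6 in old mice. In young mice 2 of the 10 genes were called, both higher, beside 1.9% of all genes tested, and with 22 libraries 2 beside 5.06%. In old mice 1 was called beside 0.78% of all genes, and 2 beside 4.12% with 22 libraries. The call in young mice was lost when only the 8 libraries compared were fitted (adjusted p = 0.0592), where adjusted p over all alternatives ran from 3.31e-25 to 0.0592.

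Between the sorts, Ptgs1 was higher in Siglec F-low cells by 1.52 ± 0.21 in young mice (edgeR adjusted p = 6.98e-05) and by 1.62 ± 0.21 in old mice (5.85e-05). The 22 libraries gave 1.44 ± 0.20 (3.56e-05) and 1.59 ± 0.20 (1.05e-05). Ptgs1 was the 1 gene of the 10 called in each age with all libraries, where 4.99% (young) and 4.3% (old) of all genes were called. With 22 libraries 3 of 10 were called in each age, where 12% (young) and 11.6% (old) of all genes were. The young call was lost when only those 8 libraries were fitted with the replicate number as a block (adjusted p = 0.13, the highest of all alternatives).

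Ptgs1 was also above the young level in old mice in each comparison by age, without a call in either fit. The difference was 0.68 ± 0.22 in naive cells (edgeR adjusted p = 0.157; 0.0749 with 22 libraries), 0.29 ± 0.21 in asbestos Siglec F-high (0.394; 0.603) and 0.38 ± 0.20 in Siglec F-low cells (0.722; 0.207). In naive cells it passed the threshold without young naive replicate 1 (0.91, adjusted p = 0.0401) or without young asbestos Siglec F-high replicate 1 (0.69, 0.0408). In asbestos Siglec F-high cells it passed without young replicate 1 (0.60, 0.0387).

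Ptgs2 encodes the inducible cyclooxygenase. Young naive libraries held 2.06, 2.48, 2.72 and 4.12 CPM and old naive libraries 6.12, 6.17, 1.99 and 2.84 CPM. Young asbestos Siglec F-high libraries held 5.52, 5.32, 0 and 2.00 CPM, with the 0 in the library that stood apart, and old ones 6.63, 5.33, 4.90 and 8.22 CPM. Siglec F-low libraries held 7.89, 8.50, 5.90 and 3.77 CPM in young and 9.79, 7.76, 11.5 and 16.4 CPM in old mice. The spread within groups was wide against the differences, and each group overlapped the next one in level. The log2 difference was above 0 in all 7 comparisons, from 0.22 to 0.97 with SE of 0.52 to 0.56 (smallest edgeR adjusted p = 0.274), and from 0.59 to 0.81 with SE of 0.33 to 0.40 with 22 libraries (0.153). At this spread a difference of that size was not called, and the size that could have been detected was not tested.

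Per exon length, Ptgs1 made up most cyclooxygenase transcripts. CPM per kilobase of exon of Ptgs1 was 64.7 ± 10.2% of the sum of Ptgs1 and Ptgs2 in young naive and 68.0 ± 12.3% in old naive cells. In asbestos Siglec F-high cells the share was 89.7 ± 9.45% in young mice (86.3 ± 7.95% over 3 libraries without the one with no Ptgs2 count) and 84.2 ± 2.37% in old mice (83.6 ± 2.38% over 3). In Siglec F-low cells it was 92.4 ± 2.14% and 90.2 ± 1.58%. These shares are a description without a test, and both genes enter them.

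**Figure D2:**
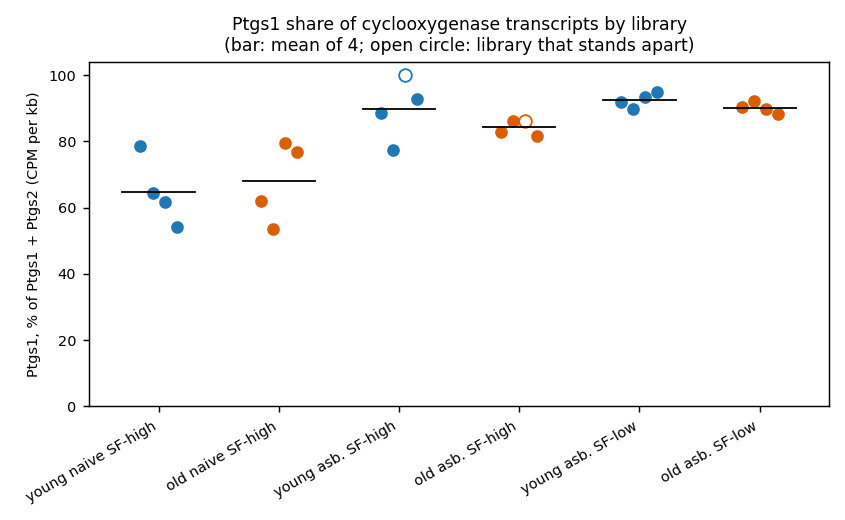
Share of Ptgs1 in the summed CPM per kilobase of Ptgs1 and Ptgs2, in percent, for each library by group; bars are the means of 4 libraries and open circles the 2 libraries that stood apart. Naive libraries lie between 53.4 and 79.4%, and Siglec F-low libraries between 88.3 and 94.8%.

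Among the terminal synthases, Ptges encodes the microsomal enzyme that makes prostaglandin E. In young mice its level was 6.59, 6.56, 5.20 and 4.28 CPM in naive, 5.25, 5.37, 1.93 and 6.24 CPM in asbestos Siglec F-high and 8.50, 8.38, 7.73 and 7.36 CPM in Siglec F-low libraries. In old mice it was 5.25, 4.21, 4.81 and 10.005 CPM in naive, 19.9, 12.2, 7.35 and 9.03 CPM in asbestos Siglec F-high and 17.8, 21.7, 7.83 and 9.48 CPM in Siglec F-low libraries. Old asbestos libraries were thus spread widely, with replicates 1 and 2 above 3 and 4 in both sorts. Every old asbestos Siglec F-high library lay above every young one, though the 7.35 CPM of old replicate 3 rests on 9 counts. The difference was 1.42 ± 0.36 in log2 (edgeR adjusted p = 0.0285), a value of 1.31 ± 0.34 with 22 libraries (0.0189). That call was lost without old replicate 1, the highest library (1.07, adjusted p = 0.117), and adjusted p over all alternatives ran from 0.00278 to 0.588. The response to asbestos in old mice was 1.07 ± 0.36 (0.248) and passed only with 22 libraries (1.19 ± 0.31, 0.0295), where the groups overlapped through old naive replicate 4. In Siglec F-low cells old exceeded young by 0.83 ± 0.35 without a call (0.465; 0.0820 with 22 libraries).

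Hpgds encodes the haematopoietic prostaglandin D synthase. Young naive libraries held 5.92, 3.69, 3.50 and 3.63 CPM, young asbestos Siglec F-high ones 9.06, 6.61, 12.5 and 6.17 CPM and young Siglec F-low ones 13.9, 10.5, 11.9 and 12.1 CPM. Old naive libraries held 3.61, 1.68, 3.43 and 3.73 CPM, old asbestos Siglec F-high ones 3.98, 4.75, 3.27 and 5.24 CPM and old Siglec F-low ones 6.89, 6.39, 9.91 and 8.88 CPM. The 12.5 CPM belonged to the young library that stood apart. After asbestos, every old library was below every young library of the same sort. The 3.27 CPM of old asbestos Siglec F-high replicate 3 rests on 4 counts.

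In young mice Hpgds rose after asbestos by 1.02 ± 0.25 (edgeR adjusted p = 0.0354), a value of 0.79 ± 0.23 with 22 libraries (0.0430). Leaving out 1 library at a time kept this call in 17 of 24 fits; among the losses were those without young naive replicate 2, 3 or 4 (0.111 to 0.152) and those lacking replicate 1 (0.0616) or 3 (0.0613) of young asbestos Siglec F-high cells. In old mice the response was 0.53 ± 0.27 (0.627; 0.58 and 0.206 with 22 libraries). The old level was lower than the young one in asbestos Siglec F-high cells by -0.92 ± 0.26 (0.0477), a call that was kept in 4 of 24 such fits and lost with 22 libraries (-0.64 ± 0.25, 0.127). In Siglec F-low cells the age difference was -0.59 ± 0.25 (0.443; 0.0819 with 22 libraries). Between the sorts Hpgds was higher in Siglec F-low cells with 22 libraries, by 0.73 ± 0.22 in young (0.0309) and 0.78 ± 0.23 in old mice (0.0299), and not called with 24 (0.50, 0.245, and 0.83, 0.0851).

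Tbxas1, thromboxane A synthase, was the most abundant of the prostanoid genes. Young naive libraries held 198, 181, 141 and 136 CPM (164 ± 30.3) and old naive ones 207, 244, 214 and 214 CPM (220 ± 16.5). Young asbestos Siglec F-high libraries held 211, 179, 193 and 181 CPM (191 ± 14.6) and old ones 255, 266, 234 and 270 CPM (256 ± 15.8); over 3 libraries without replicate 3 the means were 190.5 ± 17.7 and 263 ± 7.65 CPM. In Siglec F-low cells the values were 244, 224, 228 and 226 CPM (230 ± 9.34) in young and 293, 291, 284 and 314 CPM (295 ± 13.2) in old mice. In each pair of groups every old library was above every young one.

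Old exceeded young for Tbxas1 by 0.42 ± 0.11 in naive cells (edgeR adjusted p = 0.0410), 0.42 ± 0.11 in asbestos Siglec F-high (0.0281) and 0.36 ± 0.11 in Siglec F-low cells, the last without a call (0.135). With 22 libraries all of these 3 differences were called, at 0.43 ± 0.09 (0.00448), 0.48 ± 0.11 (0.0067) and 0.37 ± 0.09 (0.0161). The size of the naive difference stayed between 0.35 and 0.55 over all alternatives, while its adjusted p ran from 4.39e-05 to 0.230 and was under the threshold in 6 of 24 fits that left out 1 library. It was lost without young naive replicate 3 (0.221) or 4 (0.229) and without each old naive library (0.0584 to 0.163). In asbestos Siglec F-high cells the call was lost without old replicate 1, 2 or 4 (0.0629 to 0.0817). Asbestos against naive and Siglec F-low against Siglec F-high differed by 0.20 to 0.27 for Tbxas1 with all libraries, with no call in either fit.

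Counted together, the comparisons by age called few of the 10 genes. In naive cells 1 gene was called with all libraries, beside 2.03% of all genes tested, and 2 with 22 libraries, beside 8.03%. In asbestos Siglec F-high cells 3 were called, beside 4.76%, and 2 with 22 libraries, beside 7.32%. In Siglec F-low cells edgeR called 0 of 10 with all libraries, where 1.29% of all genes were called, 3 of the 10 had an unadjusted p under 0.05, DESeq2 called 1 beside 2.72% of all genes, and limma voom with sample quality weights called 3 beside 9.54%. With 22 libraries edgeR called 2, beside 7.21%. For the unadjusted count, the share of all genes at that threshold is not given.

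**Figure D3:**
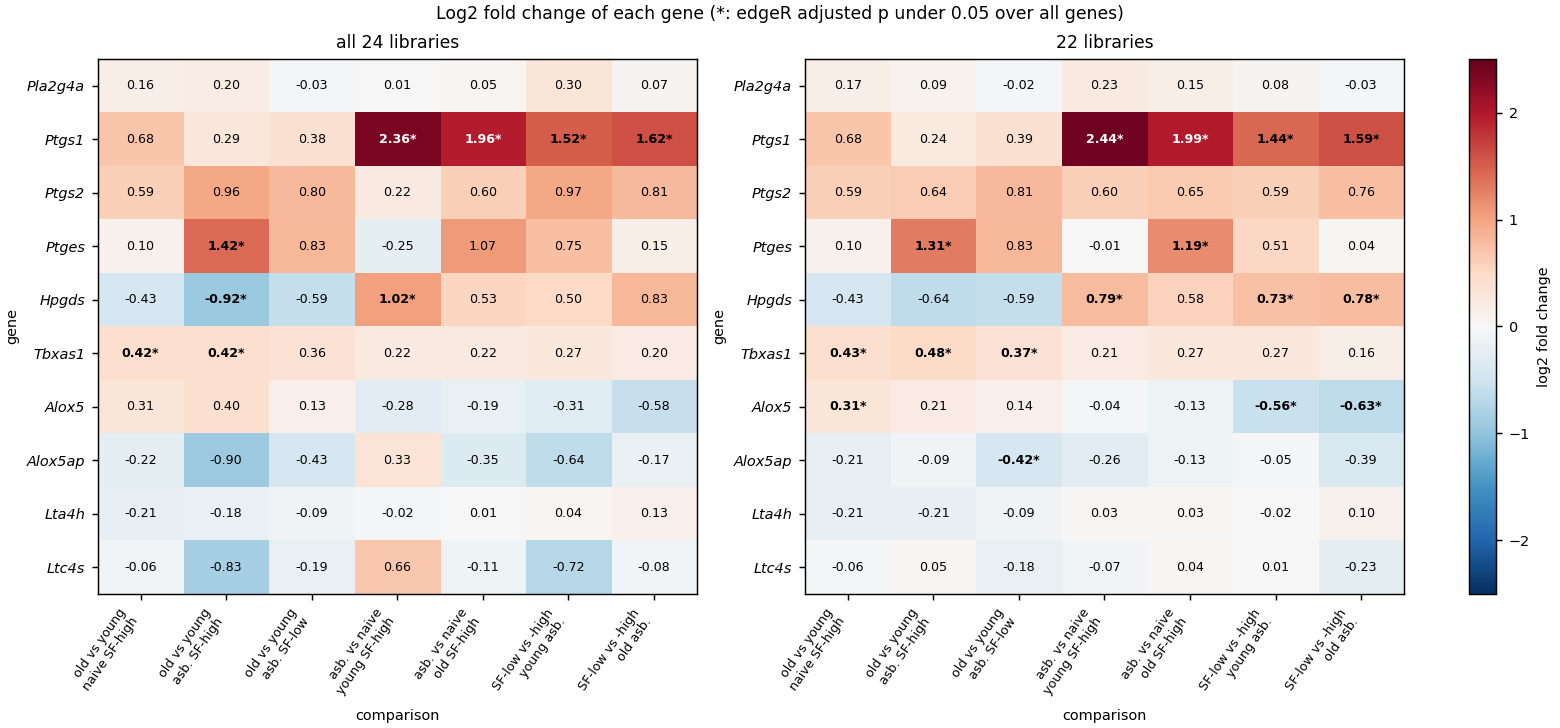
Log2 fold changes of the 10 genes in the 7 comparisons, with all 24 libraries (left) and 22 libraries (right); red is higher and blue lower in the first-named group, and an asterisk marks an edgeR adjusted p under 0.05. The row of Ptgs1 carries 4 calls in each panel, Alox5 carries none on the left and 3 on the right, and the rows of Alox5ap and Ltc4s change most between the panels.

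On the leukotriene side, Alox5 encodes 5-lipoxygenase, the enzyme that starts the branch. Young naive libraries held 450, 460, 393 and 400 CPM and old naive ones 556, 509, 555 and 484 CPM. Young asbestos Siglec F-high libraries held 437, 391, 154 and 417 CPM, and old ones 492, 492, 414 and 451 CPM. The 154 CPM was measured in the young library that stood apart. Siglec F-low libraries held 312, 245, 293 and 281 CPM in young and 319, 355, 302 and 261 CPM in old mice. All Siglec F-low libraries were below all Siglec F-high libraries except that one.

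With 22 libraries Alox5 was lower in Siglec F-low than in Siglec F-high cells by -0.56 ± 0.09 in young (edgeR adjusted p = 0.00022) and by -0.63 ± 0.09 in old mice (5.13e-05). With all libraries the differences were -0.31 ± 0.20 (0.391) and -0.58 ± 0.20 (0.124) and were not called. Leaving out young asbestos Siglec F-high replicate 3 alone gave -0.56 (0.00107) and -0.58 (0.000302). In naive cells old exceeded young by 0.31 ± 0.09 with 22 libraries (0.0246), and by 0.31 ± 0.20 with 24 (0.894), the groups not overlapping. The other age differences (0.40 and 0.13 with 24 libraries, 0.21 and 0.14 with 22) and the responses to asbestos (-0.28 and -0.19; -0.04 and -0.13) were not called.

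Alox5ap encodes the membrane protein that presents arachidonic acid to 5-lipoxygenase. Young naive libraries held 575, 879, 540 and 565 CPM and old naive ones 578, 583, 527 and 516 CPM. Young asbestos Siglec F-high libraries held 549, 539, 1619 and 521 CPM, and old ones 483, 533, 216 and 488 CPM. The libraries that stood apart were thus 1 above and 1 below all others. Siglec F-low libraries held 591, 573, 438 and 467 CPM in young and 421, 346, 390 and 380 CPM in old mice. With all libraries no difference of Alox5ap was called; the widest, old against young in asbestos Siglec F-high cells, was -0.90 ± 0.30 (edgeR adjusted p = 0.0742), and it was -0.09 ± 0.14 with 22 libraries (0.804). It passed the threshold without young replicate 1, 2 or 4 (-1.04 to -1.06, adjusted p 0.0351 to 0.0400), fits that kept the young library that stood apart. With 22 libraries Alox5ap was lower in old than in young Siglec F-low cells by -0.42 ± 0.12 (0.0332), against -0.43 ± 0.30 with 24 (0.958). In old mice it was lower in Siglec F-low than in Siglec F-high cells by -0.39 ± 0.13 with 22 libraries (0.0527), and by -0.34 with the replicate number as a block (0.0476).

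Lta4h encodes the hydrolase that makes leukotriene B. Its libraries ran from 111 to 167 CPM over all groups, and all group ranges overlapped with the next one in level. Among the 22, old asbestos Siglec F-high libraries (111 to 128 CPM) lay below young ones (134 to 152 CPM), without a call (edgeR adjusted p = 0.283). The log2 differences were -0.21 to 0.13 with an SE of 0.11 (smallest edgeR adjusted p = 0.302), and -0.21 to 0.10 with SE of 0.09 to 0.11 with 22 libraries (0.197). Ltc4s encodes leukotriene C synthase. It ran from 126 to 231 CPM in the 22 libraries and was 629 and 105 CPM in the young and the old library that stood apart. Its differences were -0.83 to 0.66 with SE of 0.31 to 0.32 with all libraries (0.106), and -0.23 to 0.05 with SE of 0.13 to 0.15 with 22 (0.359). The antisense gene Gm26542 that overlaps it had 17 to 306 counts, against 128 to 6505 for Ltc4s, and without strand information reads of the shared bases cannot be assigned to one of them.

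In the libraries that stood apart, several leukotriene genes lay outside the range of their groups. In the young one Alox5 and Lta4h were the lowest of its group and Alox5ap and Ltc4s the highest, while the mean gene length weighted by counts was 4469 bases, against 4890 to 5658 in the other 22. In the old one Alox5, Alox5ap and Ltc4s were the lowest and Lta4h lay within its group, with a weighted mean length of 4137 bases. The exon length is 1420 bases for Alox5ap, 1014 for Ltc4s and 4106 for Alox5. The part of RNA quality in these values was not tested.

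Whether age changed a response was asked with 2 interactions. For the response to asbestos in Siglec F-high cells edgeR called 0 of the 10 genes with all libraries (1 with an unadjusted p under 0.05, 0 by DESeq2), where 0% of all genes were called. With 22 libraries edgeR also called 0 (1 unadjusted), beside 0.0147% of all genes. The unadjusted counts in this paragraph stand without the share of all genes at that threshold. The interaction of Ptges was 1.32 ± 0.51 (adjusted p = 0.587; 1.20 ± 0.45 and 0.886 with 22 libraries), and that of Ptgs1 -0.40 ± 0.30 (0.644; -0.45 ± 0.32 and 0.998). For the difference between the sorts edgeR called 0 of 10 in both fits (0 unadjusted in each, 0 by DESeq2), beside 0% and 0.0147% of all genes, and 0.0457% by DESeq2. There Ptgs1 was at 0.09 ± 0.29 (0.936; 0.15 ± 0.28 and 0.953). The differences of Ptges and Hpgds between the ages were therefore not shown to be changes in the response to asbestos.

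Set side by side per exon length over the 22 libraries, the leukotriene genes led. Alox5ap had 271 to 451 CPM per kilobase as group means, Ltc4s 150 to 178 and Alox5 68.8 to 128. Tbxas1 (18.0 to 32.5) and Lta4h (19.4 to 23.02) followed, and their group means crossed. Pla2g4a had 8.46 to 10.5, and Ptgs1 ran from 1.16 in young naive to 22.3 CPM per kilobase in old Siglec F-low cells, so that it passed Pla2g4a only in Siglec F-low cells. Ptges (1.43 to 3.61), Ptgs2 (0.62 to 2.48) and Hpgds (0.48 to 1.88) were low and crossed each other, and in young naive cells Ptgs1 was below Ptges (1.44). Exon length here is the union over all annotated transcripts, which understates genes with many of them.

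**Figure D4:**
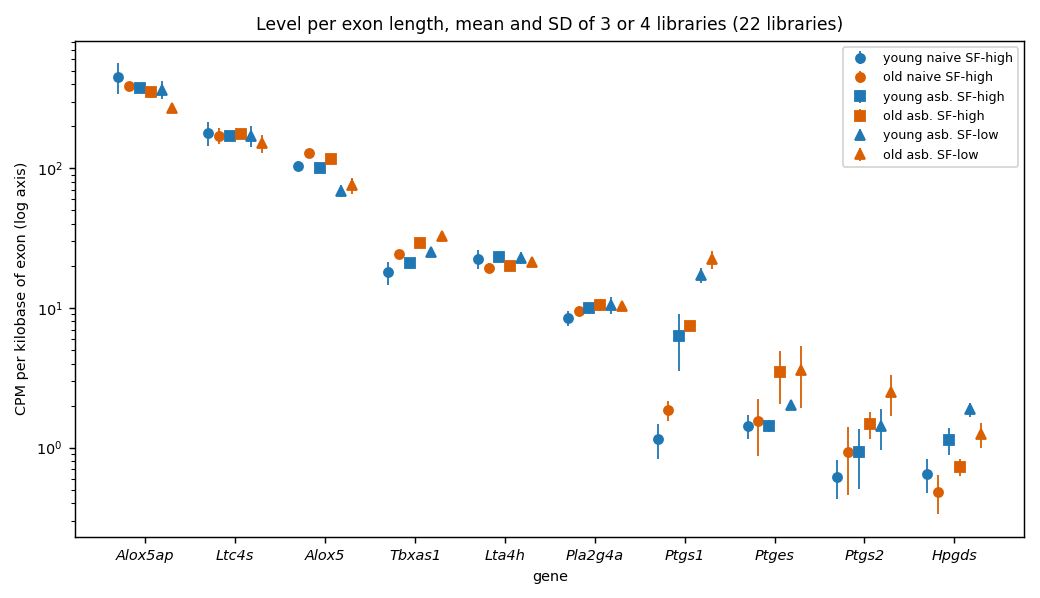
CPM per kilobase of exon (log axis) of each gene in each group, as mean and SD over the 3 or 4 libraries of a group among the 22; circles are naive Siglec F-high, squares asbestos Siglec F-high and triangles Siglec F-low, blue young and orange old. The leukotriene genes Alox5ap, Ltc4s and Alox5 lie highest, between 68.8 and 451, and Ptgs1 spans the widest range, from 1.16 to 22.3.

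Within the set, levels across the 22 libraries were compared as log2 CPM. These correlations are descriptions; the libraries share groups, so that they largely follow the group means. Ptgs1 went with Hpgds (Pearson r = 0.81), Tbxas1 (0.75) and Ptgs2 (0.73) and against Alox5 (-0.72), and Hpgds against Alox5 (-0.81). Alox5ap and Ltc4s went together (0.69). Among all genes tested, those most like Ptgs1 over the 22 libraries were Ctsk (r = 0.98) and Lgmn (0.98), which encode lysosomal proteases, and Wfdc17 (0.98). Most like Ptgs2 were Il1b (0.91), the gene of interleukin 1 beta, Thbs1 (0.90), thrombospondin 1, and Azin1 (0.90). Most like Alox5 were Hhex (0.96), a homeobox factor, Nceh1 (0.95), a cholesterol ester hydrolase, and Axl (0.93), a receptor kinase for dying cells. For the others the top genes were Rgl1, Nsf and Jcad for Hpgds (0.93 each), Scly, Trpv4 and Pgm1 for Tbxas1 (0.92 to 0.93), and Nsdhl, Pls3 and Naxd for Ptges (0.83 to 0.87). They were Ndufaf1, Rtf1 and Selenop for Alox5ap (0.92 each), Anapc11, Yeats4 and Mycbp for Ltc4s (0.86 to 0.88), Prelid3b, Psmc5 and Ube2a for Pla2g4a (0.86 to 0.89) and Tspan32, Ubqln1 and Bora for Lta4h (0.74 to 0.77).

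The rest of the pathway was read from a list of 53 genes: other phospholipid enzymes, other prostaglandin enzymes, other leukotriene and lipoxygenase genes, receptors and transporters. Of these 41 were tested, and the 12 below the filter had at most 12 counts in a library. They included prostacyclin synthase (Ptgis), the lipocalin-type prostaglandin D synthase (Ptgds) and the thromboxane receptor (Tbxa2r). By age, 3 of 41 were called in naive cells (all higher in old), beside 2.03% of all genes tested, 3 in asbestos Siglec F-high cells (2 higher, 1 lower), beside 4.76%, and 1 in Siglec F-low cells (higher), beside 1.29%. With 22 libraries these counts were 9, 8 and 6, beside 8.03, 7.32 and 7.21%. After asbestos 4 were called in young mice, beside 1.9%, and 2 in old mice, beside 0.78%, all higher. With 22 libraries 6 and 8 were called, beside 5.06 and 4.12%. Between the sorts 3 were called in each age, beside 4.99% (young) and 4.3% (old), and with 22 libraries 10 and 9, beside 12 and 11.6%. Neither interaction gave a call in either fit (4 and 1 genes with an unadjusted p under 0.05 with 24 libraries, 1 and 8 with 22). The share of all genes at that unadjusted threshold is not given, so these counts have no background. The median log2 difference of the 41 lay between -0.08 and 0.18 over the 7 comparisons, and that of all genes tested between -0.01 and 0.04.

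The list genes called by age were Pla2g2d, Ephx2, Mgst2 and Fpr2. Pla2g2d, a secreted phospholipase A2, was higher in old mice by 6.03 ± 0.52 in naive (edgeR adjusted p = 3.82e-07), 4.33 ± 0.45 in asbestos Siglec F-high (3.91e-06) and 3.27 ± 0.41 in Siglec F-low cells (7.99e-05). With 22 libraries these were 6.04 (8.75e-11), 5.36 (1.17e-09) and 3.27 (1.92e-08). Its groups did not overlap, at 0.243 to 0.705 CPM in young naive and 20.4 to 41.1 CPM in old naive libraries. Ephx2, the soluble epoxide hydrolase, was higher in old mice by 2.63 ± 0.56 in naive (0.00969) and 2.00 ± 0.51 in asbestos Siglec F-high cells (0.0261; 1.75 and 0.0047 with 22 libraries), from a low level of 0.243 to 0.379 CPM in young naive libraries. Mgst2, a microsomal glutathione transferase that can also make leukotriene C, was higher in old naive cells by 1.13 ± 0.29 (0.0383). In asbestos Siglec F-high cells its difference was 0.75 (0.1098), and 1.31 (0.000722) with 22 libraries. Fpr2, the receptor for lipoxin A and formyl peptides, was lower in old asbestos Siglec F-high cells by -1.05 ± 0.19 (0.00189; -0.72 with 22 libraries).

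The response to asbestos and the sorts were seen in 2 genes whose group means stood in the same order as those of Ptgs1. Pla2g7, the platelet-activating factor acetylhydrolase, rose after asbestos by 1.79 ± 0.29 in young (edgeR adjusted p = 0.00139) and 1.40 ± 0.29 in old Siglec F-high cells (0.0195), and was higher in Siglec F-low cells by 2.06 ± 0.28 (6.11e-05) and 1.88 ± 0.28 (0.000256). With 22 libraries these 4 values were 1.57 (0.00119), 1.52 (0.000799), 2.28 (8.72e-07) and 1.76 (1.63e-05). Ptgir, the prostacyclin receptor, rose in young mice by 2.20 ± 0.38 (0.00255) and was higher in Siglec F-low cells by 1.73 ± 0.37 in young (0.00608) and 1.81 ± 0.38 in old mice (0.00576), with 2.21 (0.000737), 1.70 (0.00201) and 1.67 (0.00238) from 22 libraries. Its Siglec F-low libraries held 140 to 237 CPM and its naive ones 5.15 to 29.0 CPM. In old mice its response to asbestos was 1.51 (0.0639) and passed with 22 libraries (1.65, 0.00856). Of the other calls, Pla2g2d and Pla2g16 rose after asbestos in young mice by 2.17 ± 0.56 (0.0470) and 1.18 ± 0.30 (0.0434), but the groups overlapped, and with 22 libraries the values were 1.23 (0.239) and 0.54 (0.0345). Mgll, monoacylglycerol lipase, rose in old mice by 0.53 ± 0.13 (0.0496; 0.57 and 0.00165 with 22 libraries). Ltb4r1, the leukotriene B receptor, was higher in old Siglec F-low than in Siglec F-high cells by 0.92 ± 0.25 (0.0317; 0.88 and 0.0144 with 22 libraries), and Fpr2 was lower in young ones by -0.84 ± 0.19 (0.00686; -0.63 and 0.00455).

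**Figure D5:**
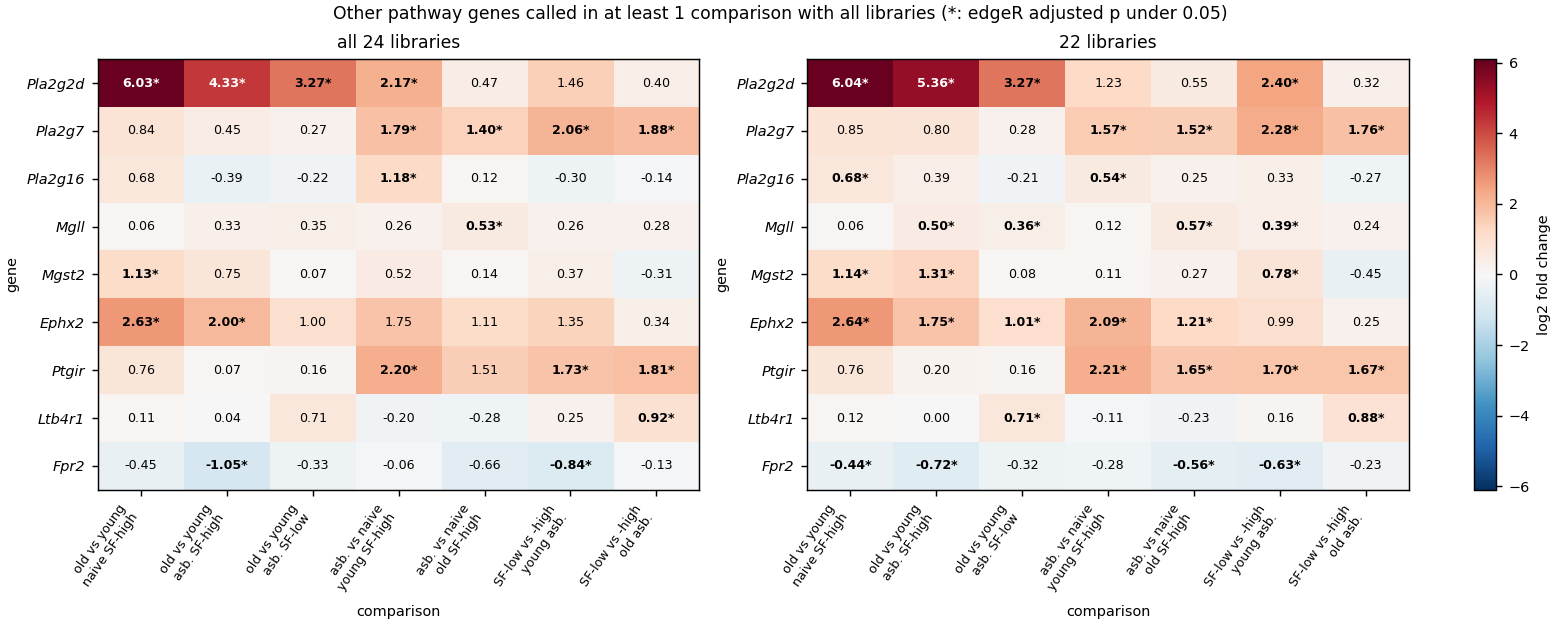
Log2 fold changes of the 9 other pathway genes that were called in at least 1 comparison with all 24 libraries (left), with the same genes in 22 libraries (right); red is higher and blue lower in the first-named group, and an asterisk marks an edgeR adjusted p under 0.05. Pla2g2d carries the widest age differences (6.03 in naive cells), and Pla2g7 and Ptgir are higher after asbestos and higher again in Siglec F-low cells.

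Markers of other cells that make these mediators were read in the same libraries. The summed level of 10 monocyte and interstitial macrophage markers was 1184 to 2264 CPM in naive libraries, 2439 to 3355 CPM in the asbestos Siglec F-high libraries among the 22 and 3979 to 6719 CPM in Siglec F-low libraries, the order in which Ptgs1 stood. Most of the sum came from Fn1 (488 to 5734 CPM) and Cd14 (370 to 788 CPM), while Ccr2 reached 23.2, Cx3cr1 9.62 and Ly6c2 3.27 CPM. In asbestos Siglec F-high cells the sum was 2847 to 3355 CPM in young and 2439 to 2818 CPM in old mice among the 22. With all libraries these ranges were 1270 to 3355 and 2439 to 4128 CPM and overlapped. The age difference of Ptgs1 in these cells was not called. The 10 alveolar macrophage markers summed to 14996 to 20405 CPM in naive libraries. Among the 22, asbestos Siglec F-high libraries held 23427 to 39876 CPM and Siglec F-low libraries 35370 to 65424 CPM. Chil3 alone ran from 10570 to 60670 CPM over all libraries, so the order of this sum is largely that of Chil3. Siglecf went the other way between the sorts, and the directions of the other alveolar macrophage markers between the sorts are not given here. Of the 10 monocyte and interstitial macrophage markers, 4 were called higher in Siglec F-low cells in young mice, beside 4.99% of all genes tested, and 5 in old mice, beside 4.3%, with C1qb higher by 2.97 and 4.11 in log2, and none was called lower. The part of these markers in the difference of Ptgs1 was not tested. The 8 mast cell and basophil markers summed to at most 4.23 CPM, with Fcer1a at 0 in 20 and Ms4a2 at 0 in 18 of 24 libraries. The 6 platelet markers summed to at most 9.79 CPM, with Ppbp at 0 in 14 libraries. The 6 eosinophil markers summed to 3.54 to 9.18 CPM in naive and 17.9 to 65.6 CPM in the asbestos libraries among the 22, mostly from Ear6, while Epx was at 0 in 18 libraries. Among B cell markers Ighm reached 257 CPM. The 8 neutrophil markers summed to 57.4 to 91.9 CPM in naive and 83.5 to 108 CPM in Siglec F-low libraries. Ly6g was at 0 in 22 of 24 libraries. The 6 epithelial markers summed to 65.3 to 205 CPM in naive libraries and at most 80.4 CPM in Siglec F-low ones. The highest neutrophil (113 CPM) and epithelial sums (230 CPM) were in young asbestos Siglec F-high libraries. The part of such cells in the levels of the 10 genes was not tested.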

How the data were processed

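RNA-seq libraries were made per the labels' protocols from 30 ng of total RNA with poly(A) selection and a NEBNext Ultra kit. The authors deposited 1 table of raw counts for 43430 Ensembl gene IDs in 24 columns, each matched to its sample by title; the number of columns of other samples was 0. The submitters' processing notes name Trimmomatic 0.36, STAR 2.6.0, HTSeq 0.11.2 and the build mm10; annotation release and strand setting are not given in the sources used here, so antisense overlaps cannot be resolved. Multi-mapped reads cannot be followed in such counts.

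From the counts, genes were kept with filterByExpr (minimum count 10, minimum total 15), scaled by TMM and fitted with the edgeR 4.0.16 quasi-likelihood model in R 4.3.3, 1 term per group over all libraries, with Benjamini-Hochberg adjustment. The SE is the absolute log2 fold change divided by the square root of F. The script was tested on simulated data. Correlations used log2 CPM with a prior count of 2. Alternatives used DESeq2 1.42.0, limma 3.58.1 and the settings of the closing section.

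The 10 genes and the lists were chosen with earlier results of these data known. Besides the 10 genes, the text names pathway genes called with all libraries in a comparison (at most 6 of smallest p in each) and the 3 genes of largest r with each of the 10; lists, markers and a gene named as the most frequent or defining one of a list were read from fixed lists. Gene counts of libraries in a group differed beyond sampling noise in all 36 pairs, so none was a duplicate. Replicate numbers were taken as pairing libraries where every correlation of deviations between equal numbers was above 0.1. By this rule they paired only the sorts of old mice among the 22 (0.150 to 0.205 over 3 numbers). The other comparisons had a lowest correlation under 0.1. For the sorts of young mice among the 22 it was 0.0854 to 0.319, and all 3 numbers matched best with their own. So did all 4 numbers between the sorts of old mice with 24 libraries (0.0733 to 0.186). Pairing of the sorts is thus not excluded there, and fits without the block did not use it.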

Additional observations from a re-analysis of the deposited data

Results flagged for a closer look

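In groups of 4, a library was singled out when its gap to the nearest other exceeded 0.829 of the range of the group. Of 60 gene and group pairs 8 were singled out, where chance gives about 1 in 20, and 4 of the 8 were in the 2 libraries that stood apart. In young asbestos Siglec F-high replicate 3 these were Alox5 at 154 CPM (others 391 to 437), Alox5ap at 1619 CPM (521 to 549) and Ltc4s at 629 CPM (162 to 178). In old asbestos Siglec F-high replicate 3 it was Alox5ap at 216 CPM (483 to 533). Young naive replicate 1 was high for Ptgs1, at 6.38 CPM (3.69 to 4.12), and for Hpgds, at 5.92 CPM (3.50 to 3.69). Young naive replicate 2 was high for Alox5ap, at 879 CPM (540 to 575), and old naive replicate 2 low for Hpgds, at 1.68 CPM (3.43 to 3.73).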

How the results depend on the processing

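Below, called genes among the 10 are given for 7 comparisons in this order: old against young in naive, asbestos Siglec F-high and Siglec F-low cells, asbestos against naive in young and old mice, and Siglec F-low against Siglec F-high in young and old mice. All 24 libraries gave 1, 3, 0, 2, 1, 1 and 1, as did RLE factors and leaving out rRNA-related genes. The replicate block, as a term over all libraries, gave 1, 2, 0, 2, 1, 1 and 1. The 22 libraries gave 2, 2, 2, 2, 2, 3 and 3, DESeq2 1, 4, 1, 2, 1, 1 and 2, and limma voom with sample quality weights 2, 3, 3, 4, 2, 4 and 3. Without a filter on low counts the numbers were 0, 1, 0, 1, 1, 1 and 1, and with only the groups compared 0, 0, 3, 0, 1, 1 and 3. With only the groups compared and the replicate block the sorts gave 0 (young) and 2 (old). Chosen after seeing the data, the 22 libraries gave 2, 3, 4, 4, 2, 4 and 4 with limma voom and weights, 3, 2, 3, 2, 2, 4 and 4 with the replicate block, 3, 2, 3, 2, 2, 3 and 4 with DESeq2 and 0, 2, 3, 1, 1, 5 and 4 with only the groups compared. Leaving out 1 library at a time gave 0 to 2, 0 to 5, 0 to 1, 1 to 2, 1 to 1, 1 to 3 and 1 to 3. The interactions gave 0 in every one of these settings run. The cause of these moves was not tested. The share of all genes called moved with the setting as well. In old against young Siglec F-low cells with all libraries it was 1.29% by edgeR and 2.72% by DESeq2. With limma voom and sample quality weights it was 9.54%. Shares are not given for most other settings, so a higher count here is not more evidence for the 10 genes.

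Of 3260 values of single genes under an alternative, 3101 kept their direction, where called, and their side of the threshold, 91 passed it newly, 68 lost it and 0 reversed. Besides the block given for Alox5ap in old sorts, where the numbers pair, the block changed no call there. The 37 alternatives moved the median of all genes tested by at most 0.09 in log2. Ptgs2, Hpgds and Ptges, at about 2 to 22 CPM, had the widest SE among the 10 genes with 22 libraries, together with Ptgs1.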
